A study of Mus musculus with 16 samples.

Results

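Chemokines, interleukins and the receptors of both were followed through 6 groups of cultures of a mouse muscle cell line. The family was taken by symbol alone: every gene of the count table whose symbol starts with Ccl, Cxcl or Il and a digit, or is a numbered Ccr or Cxcr receptor. This gave 125 of the 19799 genes, namely 19 CC chemokines, 9 CXC chemokines, 16 chemokine receptors, 40 interleukins, 40 interleukin receptor chains and the soluble binding protein Il18bp. Enough reads for a test were present for 74 of the 125, among 16245 genes tested in all.

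The cells were pmi28, a line of mouse myoblasts, the dividing precursors that fuse into multinucleated myotubes. One transgenic line carried inducible msx2 and GFP (the msx2 line), and another carried inducible GFP alone (the GFP line). Msx2 is a homeodomain transcription factor known from limb and craniofacial development. The series set out to profile isolated myotubes that express it ectopically. Each line gave uninduced myoblasts (2 libraries), uninduced isolated myotubes (3 libraries) and induced isolated myotubes (3 libraries). Myoblasts grew in medium with 20% fetal bovine serum. Myotubes formed over 3 days in 10% horse serum, were caught on a mesh, kept for 3 days with AraC, which kills dividing cells, and then moved to fresh differentiation medium. Induced myotubes then received doxycycline at 2 µg/ml for 24 h in growth medium, so drug and richer serum came together. The labels do not give the medium of the uninduced myotubes over those 24 h, and induction of the GFP line is therefore the control for drug, medium and GFP. Each construct is represented by a single transgenic line, and nothing in the labels says that replicates were separate cultures. The p-values therefore measure the spread between these libraries, which may be technical.

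As background, chemokines bind receptors with 7 membrane passes and direct cell migration, and Cxcl12 with its receptors Cxcr4 and Cxcr7 guides muscle precursors in the embryo. Most interleukin receptors are assembled from a ligand-binding chain and a shared signalling chain. Il2rg, the common gamma chain, is shared by the receptors for interleukins 2, 4, 7, 9, 15 and 21, and Il6st (gp130) by those for interleukins 6 and 11. Skeletal muscle is itself a source of interleukins, among them Il6 and Il15, which act on muscle cells and on immune cells.

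Library totals ran from 19784873 to 33092666 reads. Levels are CPM, read counts scaled to a common effective library size, and group values are mean ± SD over libraries. For the msx2 line, Msx2 itself was at 13.7 ± 1.94 CPM (n = 3) before and 1440 ± 87.1 CPM (n = 3) after induction of the myotubes, and GFP-line myotubes without doxycycline were at 1.11 ± 0.0723 CPM (n = 3). The summed level of 8 myotube markers was 30319 to 33631 CPM in uninduced msx2-line myotubes, 19277 to 22138 CPM after induction, 1959 to 2056 CPM in msx2-line myoblasts and 949 to 958 CPM in GFP-line myoblasts. The summed level of 7 fibroblast markers ran from 256 to 744 CPM across uninduced msx2-line myotubes and from 305 to 899 CPM across induced ones, and replicate 2 was the highest in each. Results on msx2 induction were therefore also computed without these 2 libraries.

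Il31ra, the receptor chain for interleukin 31, was the most abundant member by level per transcript length, at 258 CPM per kb averaged over the 16 libraries. Ccr9, the receptor for Ccl25, followed at 60.5 CPM per kb, and Il6st at 35.5 CPM per kb. Next came Il1rapl2 (16.7 CPM per kb), an orphan relative of the interleukin 1 receptor, Cxcr4 (14.6 CPM per kb), Il10 (11.9 CPM per kb), an anti-inflammatory cytokine, and Il34 (11.6 CPM per kb), a ligand of the receptor Csf1r. Receptors made up 11 of the 14 members at the top of this order, and the ligands among them were Il10, Il34 and Ccl25. In CPM without regard to length, 26 of the 74 tested members reached 10 CPM in at least 1 group and 4 reached 100 CPM (Il31ra, Ccr9, Il6st and Il1rapl1). A further 16 stayed below 1 CPM in every group. Among the 51 untested members the highest group mean was 0.447 CPM, for the B-cell chemokine Cxcl13, and 15 members had 10 reads or fewer in all 16 libraries together. Exons of 4 members overlap another gene on the same strand in the reference annotation (Ccr9, Il10rb, Il2rg and Il31ra), and those of 24 overlap a gene on the other strand. The strand setting of the counting is not given in the sources used here, so levels of these members are uncertain.

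**Figure D1:**
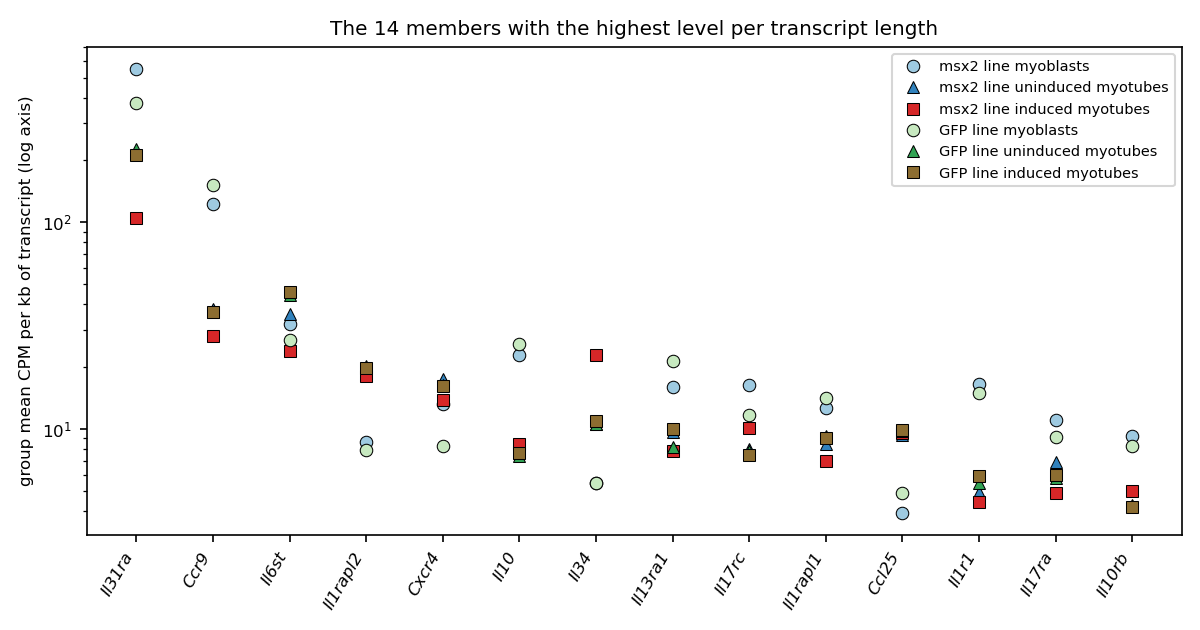
Group mean level of the 14 members with the highest level per length, in CPM per kb of the longest annotated transcript on a log axis, 1 point per group. Il31ra lies above all others in every group, from 105 CPM per kb in induced msx2-line myotubes to 549 CPM per kb in msx2-line myoblasts.

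Induction of msx2 raised the interleukin 6 receptor chain Il6ra 6.11-fold and the chemokine receptor Ccr7 5.84-fold. It lowered the ligands Il1b, Il12a, Il15 and Cxcl5. It also raised 6 of the 7 tested receptor chains of the common gamma chain family, a grouping chosen after the values were seen. The Il12a and Il15 calls were each lost without any of 5 of the 6 libraries. For both, and for Il9r, Il4ra and Il2rg among the 6 chains, the difference from GFP-line induction did not pass. Across the family 14 members rose and 9 fell of 74 tested, at an adjusted p below 0.05 by edgeR's quasi-likelihood test with Benjamini-Hochberg adjustment over all genes. Among all 16245 genes 16.2% rose and 16.3% fell, or 32.5% in either direction, against 31.1% of the tested members, so the family as a whole changed about as often as other genes. The median log2 fold change was -0.04 over the members and -0.01 over all genes. By class, 10 interleukin receptor chains rose and 3 fell of 36 tested, 2 interleukins rose and 4 fell of 16, and 1 chemokine receptor rose and 1 fell of 10. In cultures measured in bulk, fewer cells of a type and less RNA per cell cannot be told apart.

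Il2rg and the chains that pair with it make up 8 members, of which 7 were tested and 6 rose. The remaining one, Il2ra, had a log2 fold change of -0.70 that did not pass, and Il7r, the chain for interleukin 7, had too few reads for a test. This grouping was chosen after the values were seen, so its count describes the choice. For 3 of the 6 risers (Il9r, Il4ra and Il2rg) the difference from GFP-line induction did not pass. Il2rb, the signalling chain for interleukins 2 and 15, was at 1.60, 3.06 and 2.62 CPM in the uninduced and 4.90, 7.09 and 7.79 CPM in the induced msx2-line libraries. The groups did not overlap, and the log2 fold change was 1.42 (SE 0.23, adjusted p = 0.000157). Il15ra, which binds interleukin 15, was at 2.20, 1.60 and 1.43 CPM before and 7.44, 5.87 and 4.84 CPM after induction, a log2 fold change of 1.82 (SE 0.21, adjusted p = 5.85e-06). Il21r, the receptor chain for interleukin 21, was at 3.14, 3.31 and 2.96 CPM before and 13.3, 8.47 and 11.7 CPM after, a log2 fold change of 1.83 (SE 0.19, adjusted p = 2.06e-06). For both chains every induced library lay above every uninduced library of either line.

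Il4ra, the chain that binds interleukin 4 and also serves interleukin 13, was at 19.3, 39.5 and 23.4 CPM before and 48.5, 50.7 and 45.4 CPM after induction. The uninduced replicate 2 stood apart from the other 2 uninduced libraries but below all induced ones, and the log2 fold change was 0.81 (SE 0.19, adjusted p = 0.0052). Fitted on the compared groups alone, the Il4ra change kept its size at 0.81 and missed the threshold (adjusted p = 0.054). Il2rg itself was at 1.20, 1.99 and 1.96 CPM before and 2.32, 4.61 and 3.42 CPM after, a log2 fold change of 0.98 (SE 0.25, adjusted p = 0.00719). Il9r, the interleukin 9 receptor chain, had the largest fold change of the family, from 0.0499, 0.107 and 0.156 CPM to 1.10, 1.02 and 0.605 CPM (log2 fold change 2.96, SE 0.50, adjusted p = 0.000371). It reached at most 1.10 CPM and had no read in the myoblasts of either line. Il2ra, the chain that gives the interleukin 2 receptor its high affinity, did not pass, at 1.05, 0.96 and 1.03 CPM before and 0.549, 0.591 and 0.712 CPM after (log2 fold change -0.70, adjusted p = 0.0647), though the groups did not overlap. Il2ra and Il15ra are neighbours, with starts 62.5 kb apart on chromosome 2 in the RefSeq annotation, and Il4ra and Il21r have starts 51.2 kb apart on chromosome 7.

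**Figure D2:**
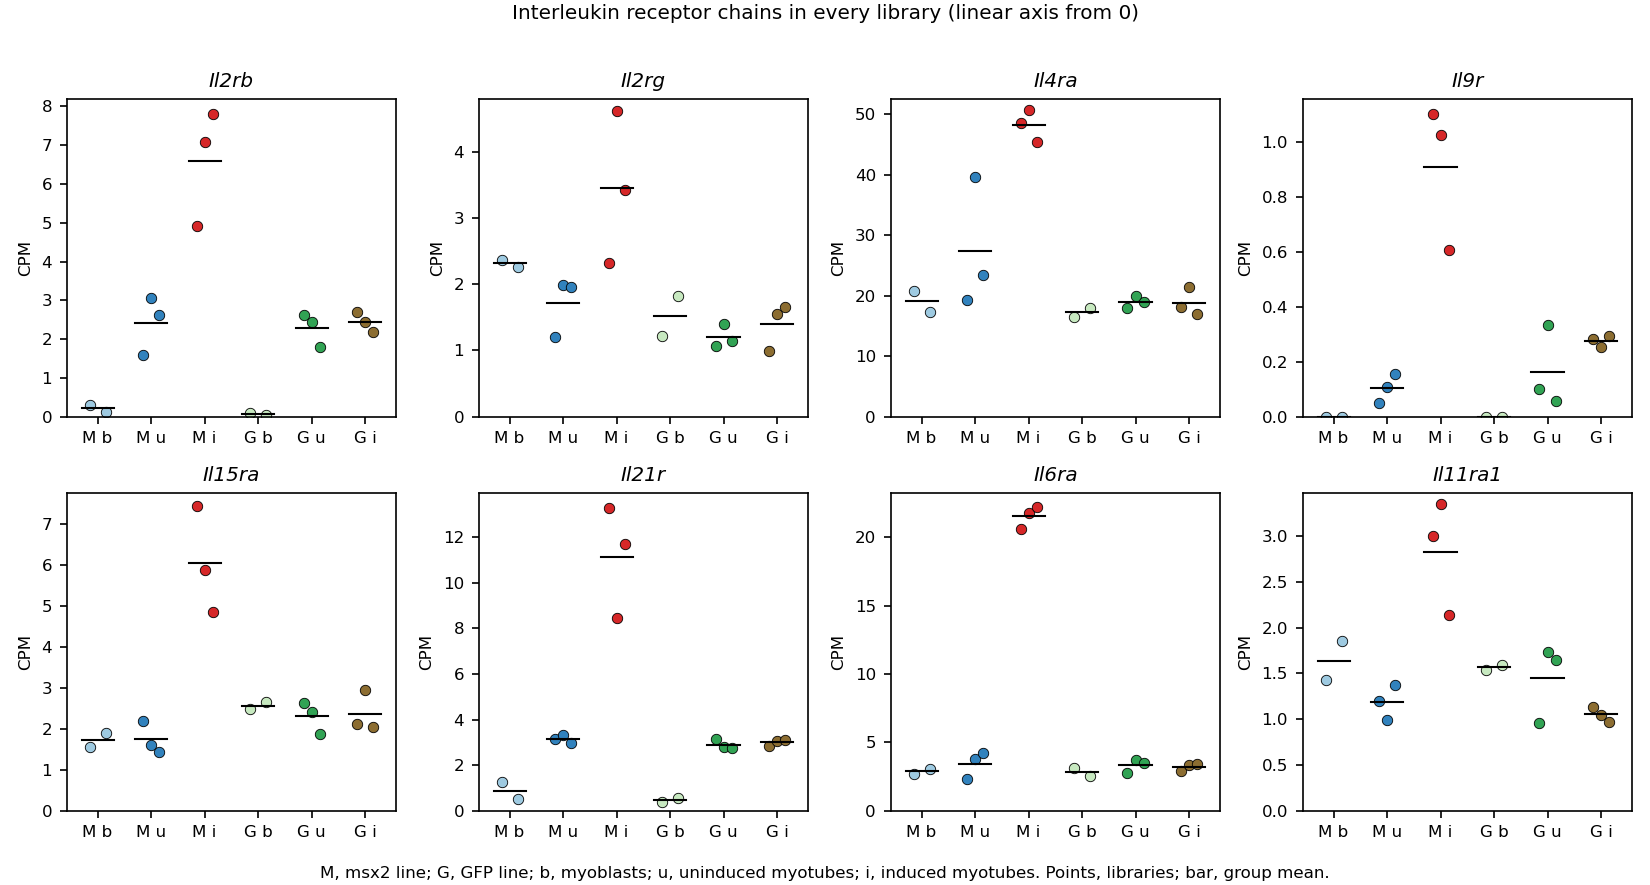
Level of 8 interleukin receptor chains in each of the 16 libraries, in CPM on linear axes that start at 0, with a bar at each group mean. In every panel the 3 induced msx2-line libraries lie above the 3 uninduced ones, while the induced and uninduced GFP-line libraries overlap, as for Il6ra with means of 3.23 and 3.34 CPM.

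Il6ra, which binds interleukin 6 and passes the signal through Il6st, had the smallest p of the family. It stood at 2.35, 3.77 and 4.23 CPM in uninduced and 20.6, 21.8 and 22.2 CPM in induced msx2-line myotubes, a log2 fold change of 2.61 (SE 0.16, adjusted p = 1.34e-08). Every other library in the series, myoblasts included, lay between 2.35 and 4.23 CPM. Il11ra1, the interleukin 11 receptor chain, was at 1.20, 0.995 and 1.37 CPM before and 3.00, 3.35 and 2.13 CPM after, a log2 fold change of 1.24 (SE 0.22, adjusted p = 0.000468). Its exons overlap Ccl27a on the other strand and it has near-identical copies, so its level is uncertain; Ccl27a itself did not pass (-0.35, adjusted p = 0.388). The shared chain Il6st was at 424, 257 and 252 CPM before and 252, 190 and 176 CPM after induction, with overlapping groups and a log2 fold change of -0.59 (adjusted p = 0.0745). With the replicate number as a block, Il6st fell by 0.57 on the log2 scale (adjusted p = 0.000682). The ligands Il6 and Il11 did not pass, at log2 fold changes of 0.36 and 0.60, and with the block Il11 did (0.61, adjusted p = 0.0286).

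The 250 bases before the start of 6 members are shown for reference, 4 receptor chains that rose (Il6ra, Il15ra, Il4ra and Il21r) and 2 members that fell (Il1b and Il31ra). They come from RefSeq on GRCm38.p6, another build than that of the counts, and read 5′ to 3′ on the strand of the gene. Capitals mark a match to CAGCTG, the E-box bound by myogenic factors such as MyoD, or to TTCNNNGAA, the site bound by STAT factors. The windows are chr3:89913197-89913446 (minus strand) for Il6ra, chr2:11705043-11705292 (plus strand) for Il15ra, chr7:125552021-125552270 (plus strand) for Il4ra, chr7:125603179-125603428 (plus strand) for Il21r, chr2:129371140-129371389 (minus strand) for Il1b and chr13:112580663-112580912 (minus strand) for Il31ra.
Il6ra: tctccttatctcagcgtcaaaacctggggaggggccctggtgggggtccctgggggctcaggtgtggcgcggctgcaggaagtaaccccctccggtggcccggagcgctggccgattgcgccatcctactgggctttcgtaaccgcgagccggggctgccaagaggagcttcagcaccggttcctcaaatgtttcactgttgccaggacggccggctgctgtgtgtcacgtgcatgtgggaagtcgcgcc
Il15ra: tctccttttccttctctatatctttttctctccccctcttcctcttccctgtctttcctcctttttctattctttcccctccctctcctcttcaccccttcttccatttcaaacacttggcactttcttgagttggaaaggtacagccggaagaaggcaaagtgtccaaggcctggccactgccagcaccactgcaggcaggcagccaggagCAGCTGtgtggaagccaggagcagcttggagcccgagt
Il4ra: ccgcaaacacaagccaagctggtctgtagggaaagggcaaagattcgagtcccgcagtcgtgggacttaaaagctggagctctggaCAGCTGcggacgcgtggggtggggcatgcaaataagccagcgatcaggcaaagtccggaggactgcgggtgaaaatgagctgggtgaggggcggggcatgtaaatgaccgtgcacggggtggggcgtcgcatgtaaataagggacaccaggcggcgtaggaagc
Il21r: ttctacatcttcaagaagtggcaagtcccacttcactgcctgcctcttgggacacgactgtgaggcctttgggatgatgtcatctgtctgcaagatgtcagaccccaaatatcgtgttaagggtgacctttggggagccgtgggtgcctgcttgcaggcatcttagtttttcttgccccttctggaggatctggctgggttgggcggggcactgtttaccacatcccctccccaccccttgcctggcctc
Il1b: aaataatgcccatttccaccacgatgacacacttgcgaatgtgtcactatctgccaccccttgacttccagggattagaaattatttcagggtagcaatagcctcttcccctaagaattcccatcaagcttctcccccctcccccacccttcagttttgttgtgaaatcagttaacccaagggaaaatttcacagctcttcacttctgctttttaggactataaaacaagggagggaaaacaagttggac
Il31ra: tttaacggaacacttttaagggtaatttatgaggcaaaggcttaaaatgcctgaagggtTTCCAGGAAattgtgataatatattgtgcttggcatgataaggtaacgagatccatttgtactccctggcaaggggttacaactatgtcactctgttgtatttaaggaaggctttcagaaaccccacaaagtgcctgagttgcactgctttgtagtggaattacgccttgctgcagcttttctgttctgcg
Windows were found for 94 of the 125 members, 116 windows in all. The homeodomain core TAATTG, of the kind Msx proteins bind, was searched on both strands and was in 0 of the 11 windows of members that rose and 0 of the 9 windows of members that fell, and in 7.17% of all 32817 windows of the table. CAGCTG was in 3 of the 11 windows of risers (Il15ra at -38, Il4ra at -164 and Il17rc at -128 from the start), against 13% of all windows. TTCNNNGAA was in 1 of the 9 windows of fallers, that of Il31ra at -191, against 7.01% of all windows. A match is a description of the letters, and the absence of one says only that the letters are not in these windows.

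Outside these groups 2 of the 5 interleukin 17 receptor chains rose and 1 fell. Il17rc, which pairs with Il17ra to bind interleukins 17A and 17F, was at 18.3, 19.3 and 17.4 CPM before and 22.9, 22.9 and 24.1 CPM after (log2 fold change 0.35, SE 0.09, adjusted p = 0.00506). Il17ra, the chain shared by the interleukin 17 receptors, moved the other way, from 59.0, 47.1 and 54.1 CPM to 43.0, 35.4 and 35.4 CPM (-0.49, SE 0.10, adjusted p = 0.00116). Neither pair of groups overlapped. Il17rb, at 0.178 to 0.249 CPM before and 0.380 to 0.591 CPM after, rose by 1.20 (SE 0.36, adjusted p = 0.0154), but the call was lost without replicate 2 of the uninduced (adjusted p = 0.0559) or the induced libraries (0.0581), and by DESeq2 (0.0967). None of the 9 chains of the interleukin 1 receptor family passed by edgeR, with log2 fold changes from -0.66 for Il1rl1 (unadjusted p = 0.0275, adjusted p = 0.0752) to 0.24 for Il1r2. The 4 tested receptors of the interleukin 10 family (-0.66 to 0.24) and the 3 of interleukins 12 and 23 (-0.20 to 0.51) did not pass either. With the replicate number as a block, Il1rapl1 of the first family (-0.28, adjusted p = 0.00975) and Il20rb of the second (-0.69, adjusted p = 0.0272) fell.

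Il31ra had the largest fall among receptor chains past the threshold. It stood at 733, 822 and 830 CPM in uninduced and 313, 415 and 433 CPM in induced msx2-line myotubes, a log2 fold change of -1.04 (SE 0.14, adjusted p = 5.82e-05). The other myotube libraries, those of the GFP line, ran from 719 to 858 CPM. Il13ra1, which joins Il4ra in the receptor for interleukin 13, fell slightly, from 40.9, 32.2 and 34.9 CPM to 30.7, 27.9 and 28.7 CPM (-0.31, SE 0.09, adjusted p = 0.0192). That call was lost without any of 3 of the 6 libraries, uninduced replicate 1 (adjusted p = 0.101) and induced replicates 2 and 3 (0.064 and 0.0596), and in a fit of the compared groups alone (0.0603).

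Il1b, the central inflammatory ligand of the interleukin 1 family, fell the most. It was at 5.59, 8.99 and 7.60 CPM before and 0.930, 1.54 and 2.56 CPM after induction, a log2 fold change of -2.12 (SE 0.26, adjusted p = 1.33e-05). Its neighbour Il1a was at 0.799 to 1.09 CPM before and 0.827 to 1.56 CPM after, with a log2 fold change of 0.36 that did not pass (adjusted p = 0.343), and the receptor antagonist Il1rn did not pass at -0.06 (adjusted p = 0.931). Il12a, the p35 subunit of interleukin 12, was at 3.19, 3.98 and 2.55 CPM before and 1.14, 0.984 and 0.676 CPM after (-1.80, SE 0.56, adjusted p = 0.0251). The groups did not overlap, yet leaving out any of 5 of the 6 libraries (all but uninduced replicate 3) ended the Il12a call, with adjusted p from 0.0507 to 0.0909 and log2 fold changes from -1.96 to -1.60. Il15, a ligand that muscle makes, was at 1.55, 1.35 and 1.40 CPM before and 0.930, 0.788 and 0.890 CPM after (-0.71, SE 0.24, adjusted p = 0.0307). Its call was lost without any of the same number of libraries (all but uninduced replicate 2; adjusted p from 0.0567 to 0.086), and by DESeq2 (0.0556). Il16, a ligand of CD4, fell from 19.3, 26.3 and 25.1 CPM to 14.2, 17.2 and 18.7 CPM (-0.50, SE 0.13, adjusted p = 0.00606).

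Il34 and Il17b were the interleukins that rose. Il34 was at 18.2, 22.1 and 16.8 CPM before and 41.6, 43.4 and 38.0 CPM after induction, a log2 fold change of 1.11 (SE 0.23, adjusted p = 0.00246). Its receptor Csf1r, not a member by symbol, was at 0.499, 0.818 and 0.841 CPM before and 6.17, 5.51 and 6.40 CPM after (log2 fold change 3.02, SE 0.25, adjusted p = 2.44e-07). The other Csf1r ligand, Csf1, did not pass at 0.32 (adjusted p = 0.555). Il34 exons overlap predicted genes on the other strand. Il17b was at 0.299, 0.213 and 0.0934 CPM before and 0.845, 0.354 and 0.640 CPM after (1.67, SE 0.52, adjusted p = 0.0194), and its call was lost without uninduced replicate 3 (1.27, adjusted p = 0.104) and by DESeq2 (0.0671). Without induced replicate 1 or 3, in a fit of the compared groups alone and with a filter of 1 CPM in 3 libraries, Il17b had too few reads to be tested.

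**Figure D3:**
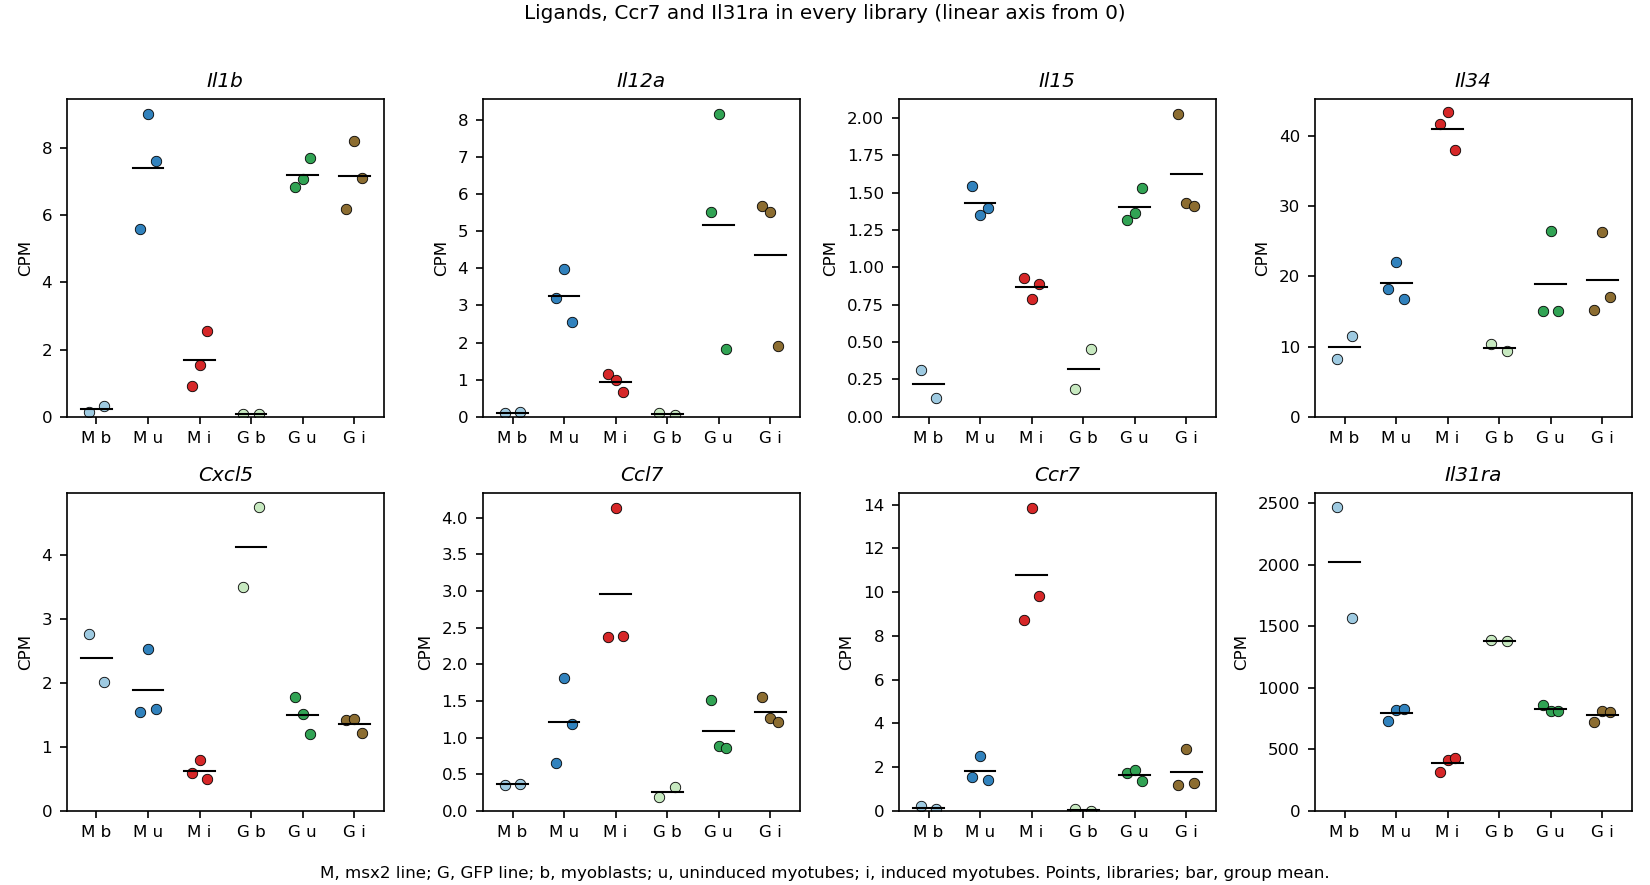
Level of 6 ligands, the chemokine receptor Ccr7 and the receptor chain Il31ra in each of the 16 libraries, in CPM on linear axes that start at 0, with a bar at each group mean. Il1b and Il12a are near 0 in myoblasts, high in uninduced myotubes of both lines and lower again in the induced msx2-line libraries, as for Il1b at 0.231, 7.39 and 1.68 CPM in the msx2 line.

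Among chemokines and their receptors 4 members changed on msx2 induction. Ccr7, which guides lymphocytes and dendritic cells to lymph nodes along Ccl19 and Ccl21, was at 1.55, 2.52 and 1.43 CPM before and 8.71, 13.8 and 9.82 CPM after (log2 fold change 2.55, SE 0.30, adjusted p = 1.2e-05). Ccl7, a monocyte attractant, was at 0.649, 1.81 and 1.18 CPM before and 2.37, 4.13 and 2.38 CPM after (1.24, SE 0.30, adjusted p = 0.00497). Cxcl5, a neutrophil attractant, fell from 1.55, 2.52 and 1.59 CPM to 0.592, 0.788 and 0.498 CPM (-1.60, SE 0.27, adjusted p = 0.000268). The uninduced and induced libraries did not overlap for any of these. Ccr9 fell from 179, 205 and 209 CPM to 128, 169 and 143 CPM (-0.43, SE 0.12, adjusted p = 0.0143), a call lost without uninduced replicate 3 or induced replicates 1 and 3 (adjusted p = 0.0565, 0.0748 and 0.051). Ccl25, the ligand of Ccr9, was at 20.8 to 26.2 CPM before and 21.9 to 26.9 CPM after (0.02, SE 0.12).

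The chemokine Ccl2, a monocyte attractant like Ccl7, did not pass, at 1.05, 2.74 and 0.903 CPM before and 2.54, 6.30 and 2.06 CPM after (1.20, adjusted p = 0.0606). Replicate 2 was the highest of each group, as it was for fibroblast markers, Ccl7, Cxcl14 and Il1rn. The same held for Ccr7, Cxcl5, Il4ra, Il2rg and Il34 among the calls above. The part of fibroblasts in these results was not tested. With the replicate number as a block Ccl2 rose by 1.18 (adjusted p = 0.011). The block also brought in Cxcr4 (-0.34), Il11 (0.61), Il20rb (-0.69), Il1rapl1 (-0.28) and Il33 (-0.47) beside Il6st, for 16 members higher and 14 lower, and lost none. Without both replicate 2 libraries of the msx2 line, an alternative chosen after seeing the data, 15 members rose and 8 fell. Il12a (adjusted p = 0.143), Il15 (0.103) and Il17rb (0.139) were then lost, and Cxcr5, Il1rl1 and Ccl2 were gained.

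No member passed on induction of the GFP line. The edgeR test called 0 of the 74, against 0.0308% of all genes, with 2 at an unadjusted p below 0.05 (Il13ra1 and Ccr10), and DESeq2 called 0. Il6ra was at 2.78, 3.73 and 3.50 CPM before and 2.93, 3.32 and 3.45 CPM after (log2 fold change -0.06, SE 0.18). Il1b was at 6.83, 7.08 and 7.68 CPM before and 6.19, 8.20 and 7.10 CPM after (-0.01, SE 0.23). Il31ra was at 858, 811 and 813 CPM before and 719, 813 and 806 CPM after (-0.09, SE 0.14). The groups overlapped for all 3 genes.

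The difference between the inductions of the lines, tested in the same fit, was past the threshold for 9 members in the direction of a larger rise with msx2 and 5 of a larger fall, where 9.15% and 8.78% of all genes passed (17.9% in either direction, 18.9% of members). The differences were 2.67 for Il6ra (SE 0.24, adjusted p = 2.69e-06), 2.43 for Ccr7, 1.77 for Il21r, 1.75 for Il15ra, 1.73 for Il11ra1 and 1.31 for Il2rb on the log2 scale. They were -2.12 for Il1b (SE 0.35, adjusted p = 0.0005), -1.49 for Cxcl5, -0.95 for Il31ra, -0.60 for Il13ra1 and -0.54 for Il17ra. Part of the difference came from GFP-line changes that did not pass for Il13ra1 (0.29, against -0.31 in the msx2 line). The same was so for Il11ra1 (-0.49, against 1.24). Il17rb (1.67), Il34 (1.06) and Il17rc (0.40) also passed, and each lost the call without some of the 12 libraries (8, 8 and 6 of them, with adjusted p up to 0.0798, 0.0998 and 0.0901). The differences for Il9r (2.21, adjusted p = 0.0857), Il4ra (0.82, 0.0604), Il2rg (0.77, 0.216), Il12a (-1.58, 0.168) and Il15 (-0.91, 0.0678) did not pass. With the replicate number as a block 13 members were higher and 10 lower, adding Il4ra (0.85), Il11 (1.00), Ccl2 (1.64), Il17b (2.76), Il12a (-1.65), Il6st (-0.61), Ccr9 (-0.43), Il16 (-0.41) and Cxcr4 (-0.33).

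**Figure D4:**
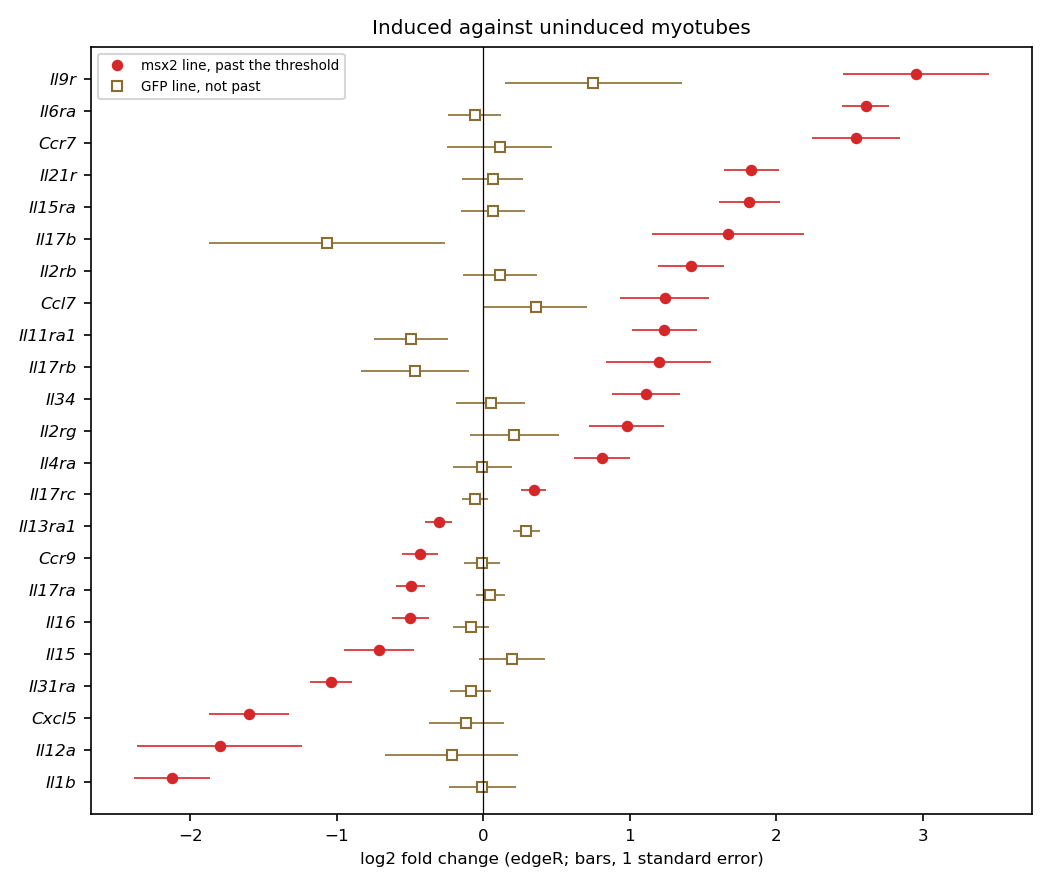
Log2 fold change of induced against uninduced myotubes for the 23 members past the threshold in the msx2 line (circles), with the same members in the GFP line (squares) and bars of 1 SE; open symbols did not pass. Filled circles run from -2.12 for Il1b to 2.96 for Il9r, and none of the squares is filled.

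Genes that work with this family were taken from lists. Of 40 related cytokines, chemokine-like genes and their receptors, 25 were tested. On msx2 induction 6 rose and 1 fell (median 0.32), where 16.2% and 16.3% of all genes did. The risers were Csf1r, Cmklr1 (1.77), the receptor for chemerin, the tumour necrosis factor receptors Tnfrsf1b (1.46) and Tnfrsf1a (0.43), Clcf1 (0.67), a ligand of the interleukin 6 type, and Lifr (0.60), a partner of Il6st. Xcr1, a lymphotactin receptor, fell (-1.60), and its difference from GFP-line induction did not pass (adjusted p = 0.0602). Of 48 genes of interleukin signalling 8 rose and 11 fell (median 0.05), against the same 16.2% and 16.3% of all genes. Socs1, an inhibitor of JAK signalling, rose from 0.948, 1.81 and 1.21 CPM to 3.93, 5.16 and 5.48 CPM (1.85, SE 0.21, adjusted p = 5.3e-06). Stat6, which Il4ra activates, rose by 0.70 and Jak1 by 0.39, while Jak3, the kinase that binds Il2rg, did not pass (0.06, adjusted p = 0.792). Other genes of these families fell, namely Stat5b (-0.56), Jak2 (-0.47), Stat2 (-0.42) and Stat4 (-0.32), as did Socs6 (-0.55) and Socs7 (-0.36). For Stat5b (adjusted p = 0.149), Stat2 (0.199) and Socs7 (0.0686) the difference from GFP-line induction did not pass. In the interleukin 1 pathway Tollip (1.27) and Irak2 (1.25) rose, and Irak3 (-0.98) and Nfkbiz (-0.77) fell. On induction of the GFP line Csf1r (-0.48) and Socs1 (0.10) did not pass.

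Many of these receptors are best known from leukocytes, so leukocyte markers are given beside them. Of 14 such genes 12 were tested on msx2 induction, 5 rose (Csf1r, Aif1, Laptm5, Itgb2 and Tyrobp) and 1 fell (Itgam, -0.34). Among all genes 16.2% rose and 16.3% fell. The difference from GFP-line induction passed for 3 of the 12, and did not for Laptm5 (adjusted p = 0.131), Tyrobp (0.0753) or Itgam (0.293). The summed level of the 14 was 35.8 to 39.6 CPM in uninduced and 42.3 to 44.6 CPM in induced msx2-line myotubes. It was 34.8 to 41.2 CPM in GFP-line myotubes. Csf1r, whose levels are given above with Il34, is in this sum (log2 fold change 3.02), and the sum without it was not computed. The pan-leukocyte marker Ptprc was at 1.56 ± 0.166 CPM before and 1.41 ± 0.237 CPM after induction (n = 3 each). The T-cell marker Cd3e was at 0.170 CPM after it. The part of such cells in the receptor results was not tested.

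More members passed in differentiation than in induction. In the GFP line 29 members rose and 24 fell from myoblasts to uninduced myotubes, or 71.6% of the 74, against 39.8% higher and 37.9% lower among all genes (77.7%). In the msx2 line 27 rose and 19 fell, or 62.2%, against 40.8% and 39.0% (79.8%). The median log2 change of the members was 0.24 in the GFP line and 0.22 in the msx2 line, against 0.06 and 0.08 over all genes. Upper-quartile scaling moved the median of all genes by 0.15 and 0.22. Across the lines, which share no library here, 22 of the 74 members rose and 17 fell in both, against 35.1% and 34.3% of all genes. No member passed in opposite directions by edgeR, as did 0.179% and 0.412% of all genes. Markers of other cells moved with differentiation. The summed fibroblast markers were at 913 to 936 CPM in GFP-line myoblasts and 339 to 386 CPM in uninduced myotubes, and at 1415 to 1467 CPM and 256 to 744 CPM in the msx2 line. Of 6 tested fibroblast markers 2 rose and 3 fell in each line. The sum of 6 endothelial markers was 15.3 to 17.1 CPM in myoblasts and 35.1 to 41.9 CPM in uninduced myotubes over both lines, with 4 of 6 rising in each. Their part in the members' changes was not tested.

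In the fit of all libraries the ligands Il1b and Il12a had the largest measured rises. Il1b was at 0.0933 and 0.0912 CPM in GFP-line myoblasts and at 6.83, 7.08 and 7.68 CPM in myotubes, a log2 fold change of 6.21 (SE 0.53, adjusted p = 2.94e-08), and the change in the msx2 line was 4.96. Il12a went from 0.0933 and 0.0456 CPM to 5.51, 8.15 and 1.82 CPM in the GFP line (6.10, SE 1.06, adjusted p = 0.000132) and rose by 4.86 in the msx2 line. The myotube replicate 3 of the GFP line was the lowest for Il12a, and it still lay far above both myoblast libraries. Il15 rose by 2.11 and 2.71 in the GFP and msx2 lines, Il1a by 2.00 and 2.44, and Il34 by 0.94 in each; the Il34 calls were lost without GFP-line myoblast replicate 2 (0.87, adjusted p = 0.0608) and msx2-line myoblast replicate 1 (0.72, 0.088). Il1f9, interleukin 36 gamma, rose in the GFP line (3.33), from a mean of 0.0467 to 0.519 CPM, and did not pass in the msx2 line (0.80). The difference between the lines did not pass for Il1f9 (-2.53, adjusted p = 0.109). The receptor of Il1f9, Il1rl2, rose in both lines (2.83 and 2.79). Sizes of such changes, from few myoblast reads, rested on single libraries. On leaving out 1 library at a time the GFP-line value lay between 2.38 and 6.68 for Il1f9, 5.55 and 6.65 for Il12a, and 1.61 and 2.88 for Il15, and the msx2-line value between 4.47 and 5.74 for Il1b. None of these calls was lost.

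Ligands and their receptors were compared for a few pairs chosen after the values were seen. Some moved in opposite directions, and others, such as Cxcl12 with Cxcr7, the same way. Il1r1, the signalling receptor for Il1b, fell from 88.5 and 85.2 CPM to 38.4, 34.3 and 23.4 CPM in the GFP line (-1.45, SE 0.20, adjusted p = 1.33e-05), and by 1.73 on the log2 scale in the msx2 line. The chains of the interleukin 12 receptor went in opposite directions. Il12rb1 fell from 20.0 and 18.1 CPM to 3.59, 2.25 and 2.83 CPM in the GFP line (-2.74, SE 0.24, adjusted p = 6.36e-08), and Il12rb2 rose from 9.19 and 8.39 CPM to between 15.8 and 20.2 CPM in the 3 myotube libraries (1.07, SE 0.14, adjusted p = 4.86e-06). Both directions held in the msx2 line, at -3.06 and 2.25. Ccr9 fell from 785 and 781 CPM to 162, 219 and 194 CPM (-2.03, SE 0.14, adjusted p = 3.52e-09), while its ligand Ccl25 rose from 12.6 and 12.3 CPM to 21.2, 25.2 and 28.1 CPM (1.00, SE 0.14, adjusted p = 8.19e-06). In none of these cases did the myoblast and myotube libraries overlap.

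Cxcl12 was lower in myotubes than in myoblasts. It fell from 67.9 and 70.4 CPM in GFP-line myoblasts to 14.6, 9.66 and 8.27 CPM in myotubes (-2.69, SE 0.31, adjusted p = 4.28e-06), and by 2.83 in the msx2 line. Its scavenger receptor Cxcr7 fell by 1.36 and 1.79. Its signalling receptor Cxcr4 rose in the GFP line, from 15.8 and 14.2 CPM to 25.4, 25.7 and 37.3 CPM (0.98, SE 0.20, adjusted p = 0.00053), and did not pass in the msx2 line (0.41, adjusted p = 0.0661), where it did with upper-quartile scaling or the block; the difference between the lines did not pass (-0.57, adjusted p = 0.227). The neutrophil attractants moved down too, Cxcl1 by 2.56 and 2.61 on the log2 scale in the GFP and msx2 lines and Cxcl5 by 1.49 in the GFP line. Cxcl1 was low throughout, with means of 1.41 CPM in myoblasts and 0.237 CPM in uninduced myotubes of the GFP line. In the msx2 line they were 1.08 and 0.170 CPM. Cxcl5 did not pass in the msx2 line (-0.33, adjusted p = 0.241), nor did the difference between the lines (1.16, adjusted p = 0.0543). Of the 5 CXC chemokines tested, 4 fell in the GFP line and 3 in the msx2 line, where 37.9% and 39.0% of all genes fell. Cxcl13, not tested here for its few reads, was called in the msx2 line with no filter, with the compared groups alone and without either myoblast library, at 0.0857 CPM in myoblasts and 0.447 CPM in uninduced myotubes. Cxcl14 fell by 2.29 and 1.47. In the GFP line its call was lost without either myoblast library or myotube replicate 3 (adjusted p = 0.0568, 0.113 and 0.0957). In the msx2 line it was lost without any library but myotube replicate 2 (0.0624 to 0.184), with upper-quartile scaling (0.0832), with either other filter (0.0504 and 0.051) and by DESeq2 (0.0647).

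Of the receptors that rose with msx2, Il2rb and Ccr7 also rose in differentiation. Il2rb went from 0.0933 and 0.0456 CPM to 2.63, 2.43 and 1.80 CPM in the GFP line (4.93, SE 0.58, adjusted p = 9.16e-07) and Ccr7 from 0.0933 and 0 CPM to 1.72, 1.88 and 1.38 CPM (5.01, SE 0.87, adjusted p = 7.06e-05). The Ccr7 value ran from 4.07 to 8.36 on leaving out 1 library at a time, and that of Il2rb from 4.52 to 5.48. Il21r rose by 2.63 in the GFP line and by 1.82 in the msx2 line. Ccr1, a receptor for inflammatory chemokines, and Il9r had no read in the myoblasts. Set against a floor of 3 reads over the myoblast group, Ccr1 was at least 3.42-fold higher in GFP-line and 5.24-fold higher in msx2-line myotubes, and Il9r at least 2.37-fold and 1.62-fold higher. Il6ra, Il15ra and Il11ra1 did not pass in either line (0.25, -0.17 and -0.08 in the GFP line).

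**Figure D5:**
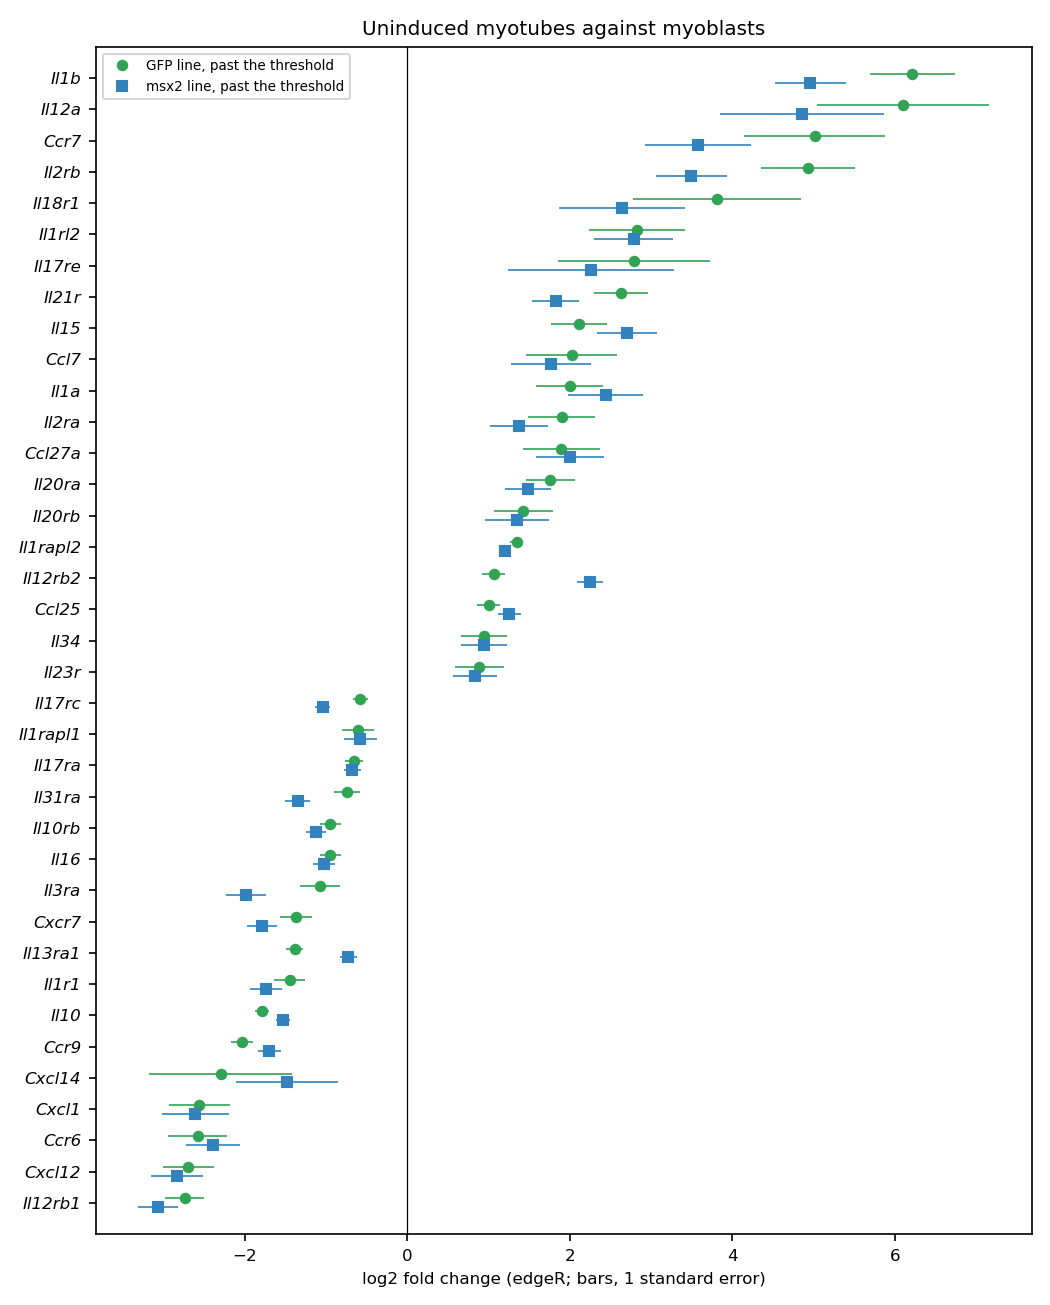
Log2 fold change of uninduced myotubes against myoblasts for 37 of the 39 members past the threshold in both lines, GFP line (circles) and msx2 line (squares), with bars of 1 SE; Ccr1 and Il9r, without a read in myoblasts, are not drawn. In the GFP line the values run from -2.74 for Il12rb1 to 6.21 for Il1b.

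The abundant Il10 and its receptor chain Il10rb both fell with differentiation. Il10 was at 35.2 and 32.1 CPM in GFP-line myoblasts and 9.11, 9.66 and 10.3 CPM in myotubes (-1.79, SE 0.09, adjusted p = 4.15e-11), and fell by 1.53 in the msx2 line. Il10ra, the chain that binds interleukin 10, was not tested, with 11 reads in all in GFP-line uninduced myotubes. Il10rb fell by 0.94 and 1.12 on the log2 scale. Among the receptor chains of the interleukin 20 group, Il20ra and Il20rb rose by 1.76 and 1.43 in the GFP line and by 1.48 and 1.35 in the msx2 line. Other falls in both lines were those of Ccr6 (-2.58 and -2.39), the receptor for Ccl20, and Il3ra (-1.07 and -1.98), the interleukin 3 receptor chain. Ccr6 went from a mean of 2.69 to 0.456 CPM in the GFP line and from 3.32 to 0.637 CPM in the msx2 line.

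Of the 14 members that rose on msx2 induction, 8 rose in differentiation of the GFP line, 1 fell (Il17rc) and 5 did not pass. The comparisons share no library. Some of the 8 were fragile in that differentiation. With 1 library left out at a time, the call was lost in 4 of 5 cases for Il17b, 2 for Il9r and 1 for Il34. Il17b, Il9r and Il17rb were not called with the compared groups alone or with at least 1 CPM in 3 libraries. Of the 9 that fell on induction, 3 had risen in that differentiation (Il1b, Il12a and Il15) and 6 had fallen. Among all genes that rose on induction, 39.8% rose and 38.9% fell in that differentiation, and among those that fell, 47.9% had risen and 38.1% had fallen. Induction did not bring Il1b back to the myoblast level, since the induced msx2-line libraries at 0.930 to 2.56 CPM lay above the myoblasts at 0.134 and 0.329 CPM.

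The lines were also compared directly. In uninduced myotubes edgeR called 0 of the 74 members, against 0.0616% of all genes (0.00616% higher and 0.0554% lower in the msx2 line), with 6 at an unadjusted p below 0.05, and DESeq2 called 0. In induced myotubes 17 members were higher in the msx2 line and 11 lower, against 17.6% and 17.8% of all genes (35.3%). This comparison shares its induced msx2-line libraries with the induction above. Il6ra was 2.73 log2 units higher than in the GFP line, Il17b 2.67, Ccr7 2.60, Il21r 1.89, Ccl2 1.75 and Il9r 1.69. The lower members by size were Il12a (-2.24), Il1b (-2.07), Il20rb and Cxcl5 (-1.12 each), Il31ra (-1.01) and Il6st (-0.95). The Ccl2 call was lost without induced replicate 2 of the msx2 line (1.09, adjusted p = 0.0602) or induced replicate 3 of the GFP line (1.57, 0.0546). That of Il20rb was lost without induced replicate 1 of the GFP line (-0.85, 0.062). Il17b was at only 0.613 CPM in the msx2 line and 0.0885 CPM in the GFP line. It was not called without induced msx2-line replicate 1 or 3, with the compared groups alone or with a filter of 1 CPM in 3 libraries.

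In myoblasts 3 members were higher and 3 lower in the msx2 line, against 9.09% and 7.24% of all genes (16.3%). Myotube markers were also higher there, 7 of 8 past the threshold with a median log2 difference of 1.57, and 7 of 8 were lower in the test of the difference of the differentiations (median -1.67). Their part in the results on myoblasts was not tested. The higher were Cxcr7 (0.65), Il31ra (0.55) and Il17rc (0.49), and the lower Il12rb2 (-1.03), Il33 (-0.77) and Il13ra1 (-0.42). Il31ra was at 2471 and 1570 CPM in the msx2-line myoblasts and 1387 and 1378 CPM in those of the GFP line, and without msx2-line replicate 1 its difference was 0.18. With 2 libraries a group these calls were fragile, since only Il12rb2 remained without that library. Leaving out 1 of the 4 libraries at a time ended the Cxcr7 call in 4 cases, those of Il31ra, Il33 and Il13ra1 in 3 each, and that of Il17rc in 1. Differentiation differed between the lines for 4 members, 3 with a larger rise or smaller fall in the msx2 line and 1 with a larger fall, where 4.01% and 4.27% of all genes passed (8.28%). They were Il12rb2 (1.18, adjusted p = 0.00256), Il33 (1.13, 0.025), Il13ra1 (0.66, 0.0105) and Il17rc (-0.46, 0.0432), and the myoblasts of the lines already differed for each. The same myoblast libraries enter both comparisons, so the myoblast difference is a part of this result and not a separate one. Il33, an alarmin of the interleukin 1 family, was at 3.07 and 4.98 CPM in msx2-line and 6.53 and 7.25 CPM in GFP-line myoblasts. Leaving out 1 of the 10 libraries at a time ended the Il17rc call in 7 cases, that of Il33 in 4, that of Il13ra1 in 2 and that of Il12rb2 in none. Il33 did not pass without msx2-line myoblast replicate 1 (0.84, adjusted p = 0.167), GFP-line myoblast replicate 1 (1.20, 0.0614) or 2 (1.05, 0.12), or GFP-line myotube replicate 2 (1.01, 0.0525). Il13ra1 did not pass without msx2-line myoblast replicate 1 (0.60, 0.0795) or GFP-line myoblast replicate 2 (0.67, 0.0506). Il17rc passed only without replicate 2 of the msx2-line myoblasts or myotubes or replicate 1 of the GFP-line myotubes, with an adjusted p of up to 0.228 otherwise, and was also lost with upper-quartile scaling (0.098), no filter (0.0526) and the compared groups alone (0.0881).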

How the data were processed

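Per the labels' protocols, the 16 libraries were prepared with a kit for stranded mRNA, with 500 ng input and 12 cycles of PCR. The deposited values are raw read counts per gene, in 19866 rows of whole numbers. TopHat2 2.0.11, edgeR 3.6.8, SAMtools 0.1.19 and the build mm9 are named in the submitters' processing notes, with no roles. How reads were assigned to genes (tool, annotation, strand) is not given in the sources used here, so reads of overlapping or antisense genes cannot be told apart. Entries without a symbol (67, or 0.0601 to 0.0878% of counts) were left out.

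Counts were fitted with edgeR 4.0.16 (R 4.3.3, limma 3.58.1): filterByExpr with a minimum count of 10, TMM scaling, 1 coefficient per group over all 16 libraries, and two-sided robust quasi-likelihood F-tests. The Benjamini-Hochberg method was applied to the 16245 genes of each comparison separately (9 comparisons), and 0.05 was the threshold. Fold changes are edgeR's shrunken values, and SE is the unshrunken log2 fold change divided by the square root of F. Where a group held no read of a gene, 3 reads over the group served as the floor, which covers counting error only.

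The members and lists were chosen with earlier results of these data known. The rule for named genes took in each comparison the 6 largest rises and 6 largest falls past the threshold with at least 0.5 CPM in the higher group, the most abundant members, and receptors or ligands of these. Genes outside it (Il4ra, Il2rg, Il11ra1, Il34, Ccl7 and others among the calls) were chosen after their values were seen. GENCODE vM21, on another build, gave transcript length for 124 of the 125 members and exon overlaps, but no coordinates.

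Same-numbered myotube libraries of a line deviated together over all genes (correlation 0.207 to 0.508 in the msx2 line, 0.359 to 0.453 in the GFP line), so the numbers were taken to pair them within each induction, as a property of the data and not of the labels. The block was the replicate number over all 16 libraries, so same-numbered libraries of both lines and of myoblasts shared its effect. Across the lines, same-numbered libraries correlated less, at 0.091 to 0.247 in induced and 0.177 to 0.288 in uninduced myotubes. Calls gained with the block rest on this shared effect. Blocked values stand beside the results on induction that they change; numbers did not pair myoblasts with myotubes (-0.01 to 0.011). Other settings tried were the block, upper-quartile and RLE scaling, DESeq2 1.42.0, each library left out, only the compared groups, no filter, and at least 1 CPM in 3 libraries.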

Additional observations from a re-analysis of the deposited data

Results flagged for a closer look

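For some members the change differed between the lines by the edgeR test of the difference itself, with Benjamini-Hochberg adjustment over all genes. For induction, the difference (msx2 line minus GFP line, log2 scale) was 2.67 for Il6ra, 2.43 for Ccr7, 1.77 for Il21r, 1.75 for Il15ra, 1.73 for Il11ra1 and 1.31 for Il2rb. It was -2.12 for Il1b, -1.49 for Cxcl5, -0.95 for Il31ra, -0.60 for Il13ra1 and -0.54 for Il17ra. None of these 11 lost its call when any of the 12 myotube libraries was left out. For Il13ra1 the difference combined -0.31 in the msx2 line with 0.29 in the GFP line, which did not pass. For Il11ra1 it combined 1.24 with -0.49, and the GFP-line value again did not pass. For differentiation, the difference was 1.18 for Il12rb2, 1.13 for Il33, 0.66 for Il13ra1 and -0.46 for Il17rc. The myoblasts of the lines, whose libraries enter this difference, differed for each of them before differentiation. Il13ra1 and Il17rc passed both tests with opposite signs (0.40 for Il17rc on induction), and the tests share the uninduced myotube libraries. Leaving out 1 library at a time ended the call on differentiation in 7 of 10 cases for Il17rc, 4 for Il33 and 2 for Il13ra1.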

How the results depend on the processing

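Over 9 comparisons, 118 of 129 counts of called members stayed within 1.5 times their value, and of 981 values of named members 925 kept direction and call, 56 kept direction and lost the call, and none reversed. The number of calls under the replicate block was 23 for the difference of the inductions (14 without it), 7 for the difference of the differentiations (4 without it) and 10 for the lines in myoblasts (6 without it); the last was 19 in a fit of the compared groups alone. In myoblasts the numbers did not pair the libraries (correlation 0.04). The block left the counts at 53 and 46 for differentiation in the GFP and msx2 lines and 0 for GFP-line induction and uninduced myotubes. In differentiation it lost Il11 and gained Il1rn in the GFP line, and lost Il22ra1, Il17d and Il17re and gained Cxcr4, Il13ra2 and Il1rn in the msx2 line. With at least 1 CPM in 3 libraries, Il9r, Il17rb and Il17b were not tested for msx2 induction. Leaving out each library in turn gave 20 to 23 calls for msx2 induction, 11 to 15 for the difference of the inductions, 41 to 49 and 40 to 46 for differentiation in the GFP and msx2 lines, 1 to 5 for the difference of the differentiations, 22 to 30 for induced myotubes and 1 to 6 for myoblasts. Upper-quartile scaling split the calls 1 higher and 4 lower in myoblasts and 4 higher and 0 lower for the difference of the differentiations. The causes were not tested, beyond the fewer libraries. Depth limits members under about 1 CPM, which held few reads a library.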
